A study of Homo sapiens with 10 samples.

Results

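The genes described here make, check and discard proteins in the endoplasmic reticulum (ER), or sense when that work falls behind. The set was defined by name and by no rule on a measured change, although earlier results of these data were known when it was chosen. It lists 44 genes in 4 classes, which are folding (16 genes), disulfide formation (9), degradation (14) and stress sensors (5). Of these, 42 had a probe set annotated to a single symbol, among 19775 genes so represented. SYVN1 and UFL1 of the degradation class had none and were not analysed here, which leaves 12 genes in that class. The brightest probe set by mean level represented each gene, and no gene was removed for a low level.

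MM.1S is a cell line from a patient with multiple myeloma, a cancer of antibody-secreting plasma cells, and here it stands for 1 line only. The cells received lentivirus with a short hairpin RNA, and RNA was taken 48 h after infection and hybridized to an Affymetrix 3' expression array. Groups of 2 arrays each carried shHDAC3#1 or shHDAC3#2 against the histone deacetylase HDAC3, shDNMT1#1 or shDNMT1#2 against the DNA methyltransferase DNMT1, or shLuc against luciferase as the control. Nothing in the labels states that a group's arrays are separate cultures, and p-values here reflect array-to-array spread that may be technical only.

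Proteins bound for secretion or the cell surface enter the ER unfolded. There, chaperones of the HSP70, HSP90 and lectin kinds hold them, disulfide isomerases join their cysteines, and clients that fail are moved back to the cytosol for destruction by the proteasome, a route known as ER-associated degradation. When unfolded clients build up, the sensors IRE1 (gene ERN1), PERK (gene EIF2AK3) and ATF6 start the unfolded protein response, in which IRE1 splices the XBP1 message and ATF6 and XBP1 raise the transcription of chaperone genes. Plasma cells depend on this system because they make antibody in bulk, and XBP1 is required for their secretory state.

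ATF6 and XBP1 act on chaperone genes through short promoter motifs, and the promoters of 4 genes that recur below show them. The motifs searched, on both strands, were the ER stress response element ERSE (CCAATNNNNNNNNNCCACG), ERSE-II (ATTGG and CCACG with 1 base between them), an XBP1 element (TGACGTGG) and the core CCACG. The core lies inside ERSE and ERSE-II and, read on the other strand, inside the XBP1 element. Each line gives 250 bases before the RefSeq gene start on GRCh38.p14, written 5′ to 3′ on the gene's strand, with the bases fixed by ERSE, ERSE-II or the XBP1 element in capitals. For CANX the window shown is 1 of 4 and for XBP1 it is 1 of 2, taken as the window with the most matches or the first of equals. The ERSE found for XBP1 lies in the window shown.
HSPA5, chr9:125241344-125241593, minus strand: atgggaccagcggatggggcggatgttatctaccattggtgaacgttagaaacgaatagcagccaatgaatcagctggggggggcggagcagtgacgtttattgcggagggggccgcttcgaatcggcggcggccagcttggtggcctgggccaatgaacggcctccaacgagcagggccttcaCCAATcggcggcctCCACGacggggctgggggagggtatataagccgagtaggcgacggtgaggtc
HYOU1, chr11:119057206-119057455, minus strand: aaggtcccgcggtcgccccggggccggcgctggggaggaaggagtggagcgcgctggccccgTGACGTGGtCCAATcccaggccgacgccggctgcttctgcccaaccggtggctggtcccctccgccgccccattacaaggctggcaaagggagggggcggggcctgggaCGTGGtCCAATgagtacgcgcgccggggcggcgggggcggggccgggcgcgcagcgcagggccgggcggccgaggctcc
CANX, chr5:179698679-179698928, plus strand: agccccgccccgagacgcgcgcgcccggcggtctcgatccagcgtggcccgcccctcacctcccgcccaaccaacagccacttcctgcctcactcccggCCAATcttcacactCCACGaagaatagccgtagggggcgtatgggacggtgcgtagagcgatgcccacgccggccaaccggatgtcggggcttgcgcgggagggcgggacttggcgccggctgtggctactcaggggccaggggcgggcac
XBP1, chr22:28800570-28800819, minus strand: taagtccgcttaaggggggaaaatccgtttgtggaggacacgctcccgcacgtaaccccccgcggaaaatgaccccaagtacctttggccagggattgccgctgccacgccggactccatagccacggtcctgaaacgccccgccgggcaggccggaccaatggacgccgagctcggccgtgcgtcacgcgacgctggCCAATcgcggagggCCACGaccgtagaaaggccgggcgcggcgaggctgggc
HSPA5, CANX and XBP1 carry an ERSE, and HYOU1 carries an ERSE-II at each of 2 places, the first of which overlaps an XBP1 element.

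Over the whole set, promoter windows, from 250 bases before to 50 after the start, were found for 38 of the 44 listed genes. An ERSE was present in 7 of them (18.4%), namely HSPA5, HSP90B1, CALR, CANX, PDIA6, ERO1B and XBP1, against 25 of 27305 genes with a window (0.0916%). ERSE-II was present in HYOU1 and SDF2L1 (5.26%), against 0.0696% of genes, and the XBP1 element in HYOU1, TXNDC11 and DNAJC10 (7.89%), against 0.927%. The core was found in 29 of the 38 (76.3%) and in 42.1% of genes. A match describes the letters in a window and is not evidence of a bound site.

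**Figure D1:**
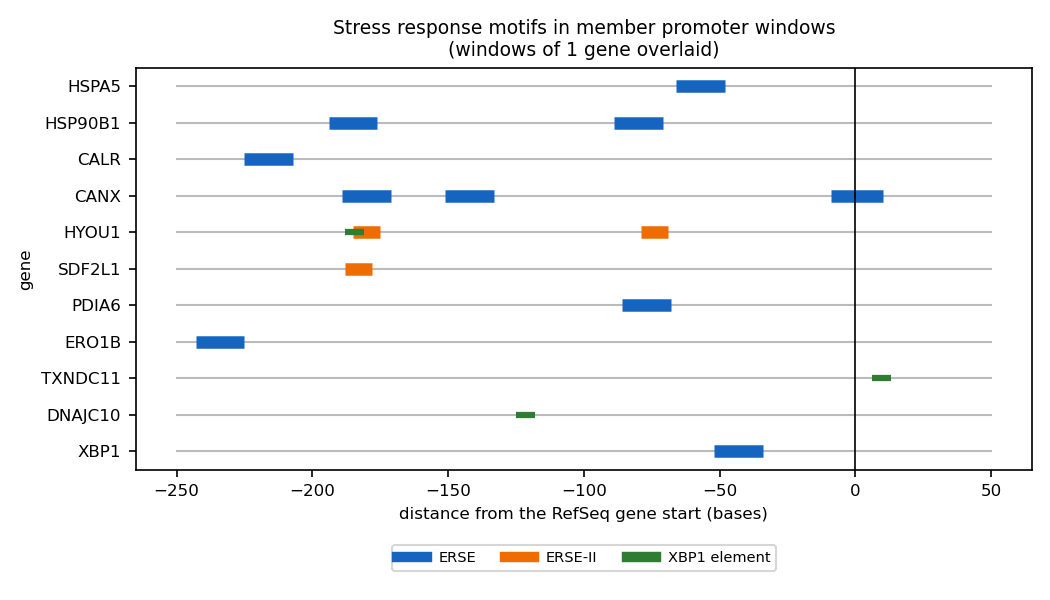
Motif matches in the promoter windows of the 11 genes of the set with an ERSE (blue), ERSE-II (orange) or XBP1 element (green). The x axis is the distance in bases from the RefSeq gene start, each grey line is a gene's window, and windows of a gene with several starts are overlaid. HSP90B1 and HYOU1 hold 2 matches of 1 kind in a window, and the marks of CANX are 1 ERSE seen from different starts of the gene.

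These genes were among the brighter ones on the arrays: 31 of the 42 averaged at least 8 on the log2 scale, and the level of ERO1B, an ER oxidase, was the only mean under 5, at 4.80. All 7 plasma cell markers checked averaged above 5 (6.21 to 12.9). So did 2 of 3 measured B, 2 of 4 T, 3 of 4 myeloid, 2 of 2 red, 2 of 4 epithelial and 3 of 4 fibroblast cell markers. Several of these, up to 8.01 for CD22 and 8.55 for COL1A1, were above the plasma cell marker CD38 (6.21), so single genes did not separate the lists. As the mean of a list per array, the plasma cell markers were at 9.19 to 9.73 and the other lists at 4.92 to 7.07. HDAC3 was at 46.9% and 41.6% of its shLuc level with shHDAC3#1 and shHDAC3#2, and DNMT1 was at 17.3% and 21.1% with shDNMT1#1 and shDNMT1#2. DNMT1 was also lower with both HDAC3 hairpins, and HDAC3 with shDNMT1#2. The spread of an array's log2 values (SD) was 1.84 to 1.91 in the hairpin arrays and 1.93 and 1.94 in the shLuc arrays. The 3' minus 5' difference of ACTB, a measure of RNA integrity, was 0.98 and 1.02 in the shHDAC3#1 arrays and 0.63 to 0.81 in the other 8. Their part in the results was not tested beyond the alternatives given in the closing section.

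The first question was how each hairpin moved the set against shLuc. Genes were tested with limma in 1 model of the 5 groups, and a gene was called at a Benjamini-Hochberg adjusted p under 0.05 over all 19775 genes, in a two-sided test. With shHDAC3#1, 29 of the 42 genes fell and none rose, with a median log2 change of -0.45, where 24.4% of all genes were called (16.6% lower and 7.83% higher) and the median of all genes was 0.06. With shHDAC3#2, 19 fell and none rose (median -0.31), where 10.9% of all genes were called, 9.54% lower and 1.31% higher. With shDNMT1#1, 12 fell and none rose (median -0.11), against 8.15% of all genes, 6.81% lower and 1.34% higher. With shDNMT1#2, 18 fell and 4 rose (median -0.25), against 26.8% of all genes, 15.2% lower and 11.6% higher. All these comparisons share the same 2 shLuc arrays. In RNA from a whole culture, fewer cells of a kind and less RNA per cell cannot be told apart.

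Bright genes were called lower more often than dim ones, so the set was also set beside the 2926 genes that averaged at least 8. Of its 31 genes in that range, 71% fell with shHDAC3#1, where 41% of the bright genes did. The shares were 51.6% and 22.7% with shHDAC3#2, 29% and 15.7% with shDNMT1#1, and 45.2% and 39.8% with shDNMT1#2. After the further quantile normalization described next, the shares were 54.8% and 24.9% with shHDAC3#1, 32.3% and 15.3% with shHDAC3#2, 32.3% and 11.8% with shDNMT1#1, and 25.8% and 24.3% with shDNMT1#2.

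A further quantile normalization over all probe sets, which gives every array the same spread, shifted the balance of calls. It gave 22 lower and 5 higher with shHDAC3#1, 13 and 0 with shHDAC3#2, 13 and 6 with shDNMT1#1, and 12 and 13 with shDNMT1#2, where the median of the set turned to 0.04. No gene called in the deposited values was called the opposite way. Over all genes this normalization gave 2678 lower and 2725 higher with shHDAC3#1, and 1564 lower and 610 higher with shHDAC3#2. It gave 1183 lower and 408 higher with shDNMT1#1, and 2571 lower and 2962 higher with shDNMT1#2. The deposited values are used below, and the genes that lost or gained a call at this step are named in each class.

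**Figure D2:**
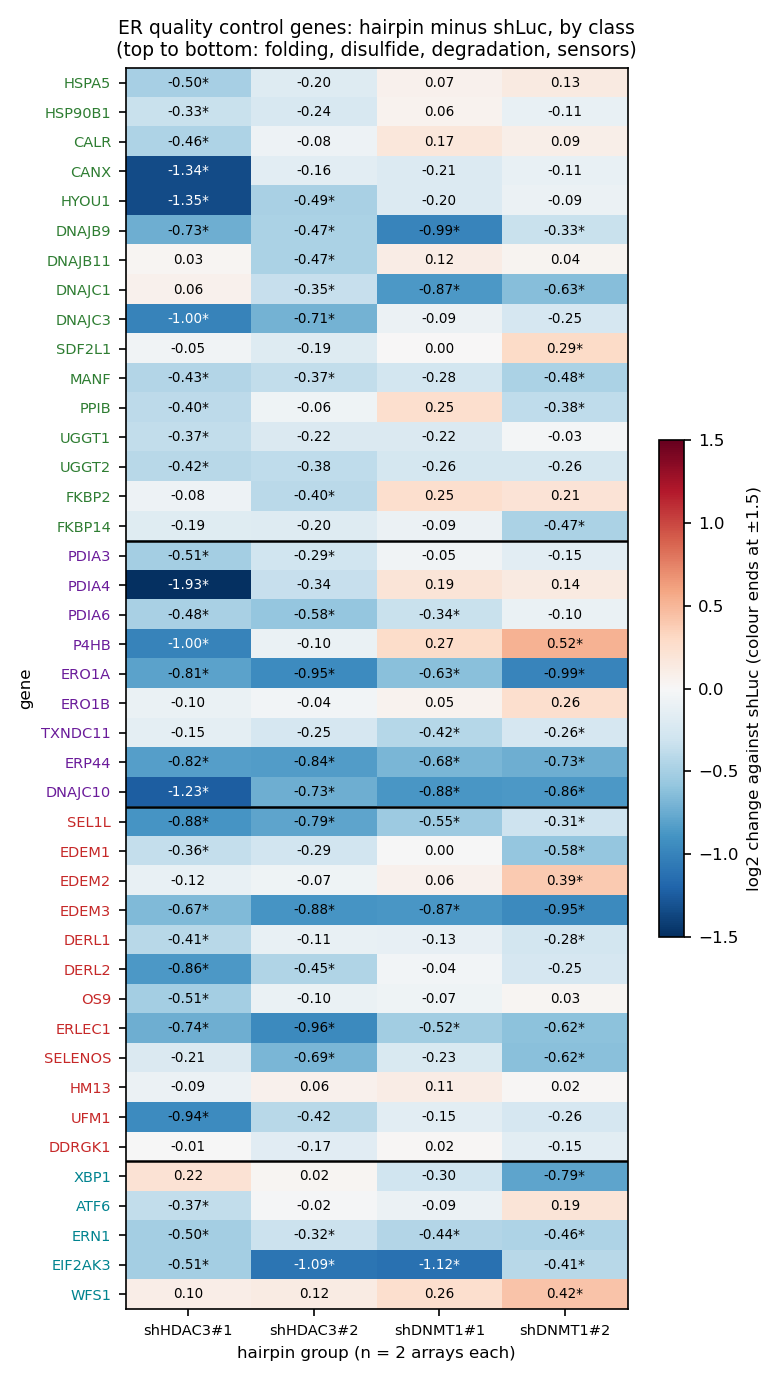
Log2 change of each of the 42 genes (rows) in each hairpin group (columns, n = 2 arrays) against shLuc (n = 2), with an asterisk where the adjusted p of limma was under 0.05. Blue is lower and red higher than shLuc, gene names are coloured by class, and colours end at a change of 1.5 either way. ERO1A, ERP44, DNAJC10, SEL1L, EDEM3, ERLEC1, DNAJB9, ERN1 and EIF2AK3 carry an asterisk in all 4 columns, while PDIA4, CANX and UFM1 carry one only under shHDAC3#1.

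In the folding class, 11 of 16 genes fell with shHDAC3#1 and 7 with shHDAC3#2, with median log2 changes of -0.41 and -0.30. With shDNMT1#1, 2 fell, DNAJB9 and DNAJC1, and with shDNMT1#2, 5 fell and 1 rose (medians -0.09 and -0.11). HSPA5, the HSP70 chaperone of the ER also called BiP and the regulator that holds the sensors inactive, had log2 levels of 10.19 and 10.29 with shHDAC3#1, 10.50 and 10.59 with shHDAC3#2, 10.93 and 10.69 with shDNMT1#1, 10.89 and 10.85 with shDNMT1#2, and 10.73 and 10.75 with shLuc. Both shHDAC3#1 arrays lay below all others, and the shDNMT1#1 arrays lay on either side of shLuc. The log2 change was -0.50 ± 0.09 with shHDAC3#1 (SE, adjusted p = 0.0003 in limma), which is 70.8% of shLuc, and it was not called with the other hairpins (-0.20, 0.07 and 0.13). A dimmer HSPA5 probe set, with a mean of 6.71, gave -0.08 with shHDAC3#1.

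HYOU1, a large HSP70-like chaperone and nucleotide exchanger for BiP, had levels of 7.33 and 7.12 with shHDAC3#1, 8.01 and 8.15 with shHDAC3#2, 8.48 and 8.25 with shDNMT1#1, 8.57 and 8.40 with shDNMT1#2, and 8.67 and 8.47 with shLuc. The HDAC3 hairpin arrays were all below shLuc, and the DNMT1 hairpin arrays overlapped it. It fell by 1.35 ± 0.11 on the log2 scale with shHDAC3#1 (adjusted p = 1.6e-08) and by 0.49 ± 0.11 with shHDAC3#2 (adjusted p = 0.0047). The call for shHDAC3#2 was lost without the first shLuc array (adjusted p = 0.14) or the first shHDAC3#2 array (adjusted p = 0.089).

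CANX encodes calnexin, a membrane lectin that holds newly glycosylated proteins. Its levels were 9.46 and 9.47 with shHDAC3#1, 10.61 and 10.67 with shHDAC3#2, 10.52 and 10.67 with shDNMT1#1, 10.80 and 10.58 with shDNMT1#2, and 10.88 and 10.73 with shLuc. Only the shHDAC3#1 pair stood apart, more than 1 log2 unit below the rest. That change was -1.34 ± 0.09 (adjusted p = 1e-09), or 39.4% of shLuc, and 3 further CANX probe sets with a mean of at least 8 gave -1.25 to -1.44.

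DNAJC3, a co-chaperone of BiP that also inhibits PERK, had levels of 7.36 and 7.51 with shHDAC3#1, 7.59 and 7.87 with shHDAC3#2, 8.46 and 8.23 with shDNMT1#1, 8.18 and 8.20 with shDNMT1#2, and 8.53 and 8.35 with shLuc. All 4 HDAC3 hairpin arrays lay below every other array. It fell by 1.00 ± 0.11 on the log2 scale with shHDAC3#1 (adjusted p = 1e-06) and by 0.71 ± 0.11 with shHDAC3#2 (adjusted p = 0.00013), and 3 other probe sets of the gene gave -0.27 to -0.71 and -0.21 to -0.61 for these hairpins.

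DNAJB9, a BiP co-chaperone that represses IRE1, fell with every hairpin. It had levels of 8.39 and 8.55 with shHDAC3#1, 8.63 and 8.82 with shHDAC3#2, 8.37 and 8.06 with shDNMT1#1, 8.94 and 8.80 with shDNMT1#2, and 9.28 and 9.12 with shLuc. No hairpin array reached the shLuc range, and shDNMT1#1 had the lowest mean. The log2 change was -0.99 ± 0.11 with shDNMT1#1 (adjusted p = 3.9e-06) and -0.33 with shDNMT1#2, where further quantile normalization turned it to 0.03 and leaving out either shDNMT1#2 array or the first shLuc array ended the call. The dimmest probe set of the gene gave -0.42 with shHDAC3#1 and -1.71 with shHDAC3#2. The shHDAC3#2 call was lost without the first shHDAC3#2 array or the first shLuc array (adjusted p = 0.13 and 0.15).

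PPIB, a proline isomerase of the ER, differed between the DNMT1 hairpins. It was at 10.66 and 10.77 with shHDAC3#1, 10.96 and 11.14 with shHDAC3#2, 11.32 and 11.40 with shDNMT1#1, 10.81 and 10.64 with shDNMT1#2, and 11.04 and 11.18 with shLuc. The shDNMT1#1 arrays were the highest of all 10, at a log2 change of 0.25 that was not called (adjusted p = 0.11), and the shDNMT1#2 arrays were below shLuc, at -0.38 ± 0.09 (adjusted p = 0.0038). The second PPIB probe set gave 0.32 and -0.33, and the call was lost without the second shDNMT1#2 array (adjusted p = 0.07) or the second shLuc array (adjusted p = 0.06).

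Among the other folding genes, DNAJC1, a J-protein that binds BiP, fell by 0.87 with shDNMT1#1 and by 0.63 with shDNMT1#2 on the log2 scale, and by 0.35 with shHDAC3#2, but was at 0.06 with shHDAC3#1. DNAJB11, the abundant ER J-protein for BiP, fell with shHDAC3#2 alone among the calls (-0.47), and so did FKBP2, a proline isomerase (-0.40), whose changes with the DNMT1 hairpins were 0.25 and 0.21, not called. MANF, a secreted stress-induced factor that binds BiP, had changes of -0.43, -0.37, -0.28 and -0.48 over the 4 hairpins, all called except shDNMT1#1. The HSP90 paralog HSP90B1 and the lectin CALR were called only with shHDAC3#1 (-0.33 and -0.46). A second HSP90B1 probe set, with a mean of 8.11, gave -0.67, -0.62, -0.25 and -0.56 over the 4 hairpins. The second brightest CALR probe set, with a mean of 8.33, gave -1.01, -0.43, -0.08 and -0.34. The dimmest CALR probe set, with a mean of 6.49, gave -0.11 to 0.11. SDF2L1, a partner of DNAJB11, was the folding gene that rose with shDNMT1#2 (0.29, adjusted p = 0.031). UGGT1 and UGGT2, which mark misfolded glycoproteins for another round of folding, were called with shHDAC3#1 (-0.37 and -0.42), although the other UGGT1 probe sets ranged from -0.29 to 0.29 there, and FKBP14, another isomerase, with shDNMT1#2 (-0.47). After further quantile normalization HSP90B1, CALR, MANF and UGGT1 lost the call with shHDAC3#1, DNAJB9, DNAJC1, MANF and FKBP2 with shHDAC3#2, and DNAJB9 and MANF with shDNMT1#2. The same step added higher calls for HSPA5 (0.41, adjusted p = 0.00061), CALR, DNAJB11 and FKBP2 with shDNMT1#2, for CALR, DNAJB11, PPIB and FKBP2 with shDNMT1#1, and for DNAJB11, DNAJC1 and FKBP2 with shHDAC3#1.

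The disulfide class fell the most with shHDAC3#1, at a median of -0.81 with 7 of 9 genes called. Its median was -0.34 with shHDAC3#2 (5 called), -0.34 with shDNMT1#1 (5 called) and -0.15 with shDNMT1#2 (4 lower, 1 higher). PDIA4, a disulfide isomerase with several thioredoxin domains, had levels of 7.77 and 7.41 with shHDAC3#1, 9.07 and 9.28 with shHDAC3#2, 9.82 and 9.59 with shDNMT1#1, 9.75 and 9.57 with shDNMT1#2, and 9.51 and 9.54 with shLuc. The shHDAC3#1 arrays were far below the other 8, the shHDAC3#2 arrays were slightly below shLuc, and the DNMT1 hairpin arrays were slightly above it. The change was -1.93 ± 0.12 with shHDAC3#1 (adjusted p = 1.2e-10), or 26.2% of shLuc and the largest fall of the set against shLuc. It was not called with shHDAC3#2 (-0.34, adjusted p = 0.065) or with the DNMT1 hairpins (0.19 and 0.14). A second PDIA4 probe set gave -1.32 with shHDAC3#1 and -0.06 with each DNMT1 hairpin.

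P4HB encodes PDI, the founding disulfide isomerase. Its levels were 8.91 and 9.07 with shHDAC3#1, 9.78 and 10.00 with shHDAC3#2, 10.27 and 10.26 with shDNMT1#1, 10.60 and 10.42 with shDNMT1#2, and 9.95 and 10.04 with shLuc. The shHDAC3#1 pair was lowest, the shHDAC3#2 pair overlapped shLuc, and all 4 DNMT1 hairpin arrays were above shLuc. It fell by 1.00 ± 0.10 with shHDAC3#1 (adjusted p = 1.2e-07, 49.9% of shLuc) and rose by 0.52 ± 0.10 with shDNMT1#2 (adjusted p = 0.00036, 143% of shLuc). With shDNMT1#1 the change was 0.27 and was not called. The other P4HB probe sets gave 0.12 and 0.08 with shDNMT1#2, and the mean of all 3 was not called there (0.24, adjusted p = 0.058).

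DNAJC10, an ER reductase that opens disulfides of misfolded clients before their export, was lower in every hairpin array than in shLuc. Its levels were 7.07 and 7.29 with shHDAC3#1, 7.63 and 7.72 with shHDAC3#2, 7.71 and 7.35 with shDNMT1#1, 7.56 and 7.54 with shDNMT1#2, and 8.61 and 8.21 with shLuc. The log2 changes were -1.23, -0.73, -0.88 and -0.86 in that order of hairpins, each with an SE of 0.13, and 2 further probe sets averaging above 6 gave negative changes in all 4.

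The oxidase ERO1A, which passes oxidizing equivalents to PDI, behaved in the same way. It was at 6.83 and 6.91 with shHDAC3#1, 6.69 and 6.77 with shHDAC3#2, 7.24 and 6.85 with shDNMT1#1, 6.66 and 6.70 with shDNMT1#2, and 7.76 and 7.59 with shLuc. All 4 changes were called (-0.81, -0.95, -0.63 and -0.99), and none of the 8 hairpin arrays reached shLuc. ERP44, which retains ERO1 proteins and returns unassembled clients to the ER, was called with all 4 as well (-0.82, -0.84, -0.68 and -0.73), but its 2 dimmer probe sets, with means of 6.18 and 5.36, lay between -0.33 and 0.16. PDIA6, an isomerase that also attenuates IRE1, fell with both HDAC3 hairpins (-0.48 and -0.58) and with shDNMT1#1 (-0.34). PDIA3, which works on glycoproteins held by CANX and CALR, fell with shHDAC3#1 (-0.51) and shHDAC3#2 (-0.29). TXNDC11, a thioredoxin-like protein that works with the EDEM proteins, fell with shDNMT1#1 (-0.42) and shDNMT1#2 (-0.26). ERO1B was not called with any hairpin (-0.10, -0.04, 0.05 and 0.26). Further quantile normalization ended the calls of PDIA3 with shHDAC3#2 and TXNDC11 with shDNMT1#2, and added higher calls for PDIA4 and P4HB with shDNMT1#1 (0.34 and 0.35) and for PDIA4 and PDIA3 with shDNMT1#2.

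**Figure D3:**
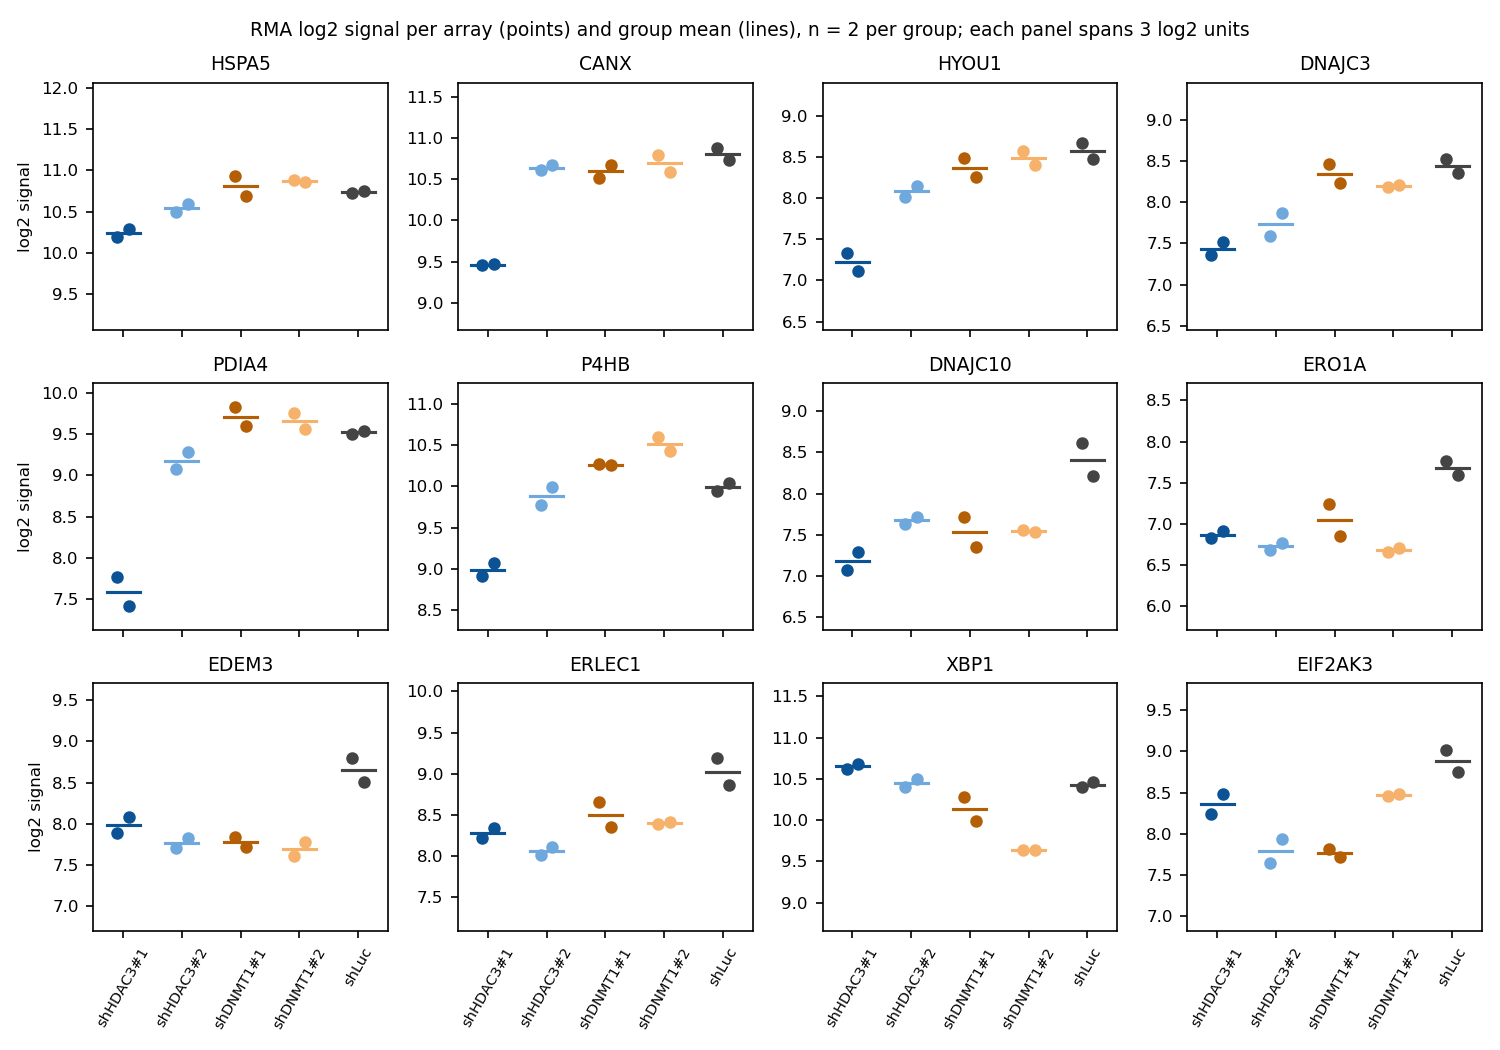
Log2 level of 12 genes in each of the 10 arrays (points) with the mean of each group (lines, n = 2), in panels of equal height. The x axis gives the group. PDIA4, CANX and P4HB stand low in the shHDAC3#1 arrays, DNAJC10, ERO1A, EDEM3 and ERLEC1 are lower in all 8 hairpin arrays than in shLuc, and XBP1 is lowest in the shDNMT1#2 arrays.

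In the degradation class, 8 of 12 genes fell with shHDAC3#1, 5 with shHDAC3#2, 3 with shDNMT1#1 and 6 with shDNMT1#2, with medians of -0.46, -0.35, -0.10 and -0.27. EDEM2 was the exception in direction, rising with shDNMT1#2 (0.39, adjusted p = 0.025). EDEM3, a mannosidase that trims glycans of doomed glycoproteins, had levels of 7.89 and 8.08 with shHDAC3#1, 7.71 and 7.82 with shHDAC3#2, 7.85 and 7.71 with shDNMT1#1, 7.61 and 7.78 with shDNMT1#2, and 8.80 and 8.50 with shLuc. Every hairpin array was lower than both shLuc arrays. The shHDAC3#1 pair was the highest of the hairpin arrays, and the other hairpin groups overlapped each other. Its changes were -0.67, -0.88, -0.87 and -0.95, each ± 0.11 (SE), and both other probe sets gave -0.56 to -1.07.

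ERLEC1, a lectin that delivers trimmed glycoproteins to the membrane export complex, had levels of 8.22 and 8.35 with shHDAC3#1, 8.01 and 8.11 with shHDAC3#2, 8.66 and 8.35 with shDNMT1#1, 8.38 and 8.42 with shDNMT1#2, and 9.18 and 8.86 with shLuc. All 8 hairpin arrays were below shLuc, and the shHDAC3#2 pair was the lowest. The fall reached 0.96 ± 0.12 on the log2 scale with shHDAC3#2 (adjusted p = 4.6e-06). With shDNMT1#1 the change was -0.52 (adjusted p = 0.0057), a call that was lost without the first shLuc array (adjusted p = 0.24) or the second shDNMT1#1 array (adjusted p = 0.13).

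UFM1, the ubiquitin-like modifier of the UFMylation pathway at the ER membrane, had levels of 6.08 and 6.10 with shHDAC3#1, 6.64 and 6.59 with shHDAC3#2, 7.16 and 6.60 with shDNMT1#1, 6.68 and 6.88 with shDNMT1#2, and 7.09 and 6.98 with shLuc. The shHDAC3#1 pair was the lowest, and the first shDNMT1#1 array was the highest of all. Its change with shHDAC3#1 was -0.94 ± 0.14 (adjusted p = 3e-05), and the second probe set of similar brightness gave -0.34. DDRGK1, the membrane anchor of the UFM1 ligase, did not pass the test with any hairpin (-0.01, -0.17, 0.02 and -0.15).

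SEL1L, the scaffold of the main ER ubiquitin ligase complex, was called lower with all 4 hairpins (-0.88, -0.79, -0.55 and -0.31). Its other probe sets gave -0.03, 0.30 and -0.25 with shDNMT1#2, and all were negative with the other hairpins. Further quantile normalization put SEL1L at 0.06 with shDNMT1#2. DERL2, a membrane protein of the export channel, fell with shHDAC3#1 and shHDAC3#2 (-0.86 and -0.45). Its relative DERL1 was called with shHDAC3#1 (-0.41) and with shDNMT1#2 (-0.28), where the same step gave 0.10. Its other probe sets gave -0.95 to 0.34 with shHDAC3#1 and do not tell 1 direction. SELENOS, which links the channel to the extracting ATPase p97, was called with shHDAC3#2 (-0.69) and shDNMT1#2 (-0.62). EDEM1, the EDEM3 relative, fell with shHDAC3#1 (-0.36) and shDNMT1#2 (-0.58) and was at 0.00 with shDNMT1#1. The lectin OS9 was called with shHDAC3#1 only (-0.51), and HM13, the signal peptide peptidase, with none (-0.09 to 0.11). EDEM1 and DERL1 lost the shHDAC3#1 call after further quantile normalization, which added higher calls for DDRGK1 with shHDAC3#1 (0.21, adjusted p = 0.048) and for HM13 (0.39) and OS9 (0.25) with shDNMT1#2.

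The sensors did not move as a class: with shHDAC3#1, ATF6, ERN1 and EIF2AK3 fell, with shHDAC3#2 and shDNMT1#1 it was ERN1 and EIF2AK3, and with shDNMT1#2 XBP1, ERN1 and EIF2AK3 fell and WFS1 rose. XBP1, the transcription factor gene, had levels of 10.62 and 10.68 with shHDAC3#1, 10.41 and 10.50 with shHDAC3#2, 10.28 and 9.99 with shDNMT1#1, 9.64 and 9.64 with shDNMT1#2, and 10.40 and 10.46 with shLuc. The DNMT1 hairpin arrays were all below shLuc, with shDNMT1#2 lowest, and the shHDAC3#1 arrays were above it. The change was -0.79 ± 0.09 with shDNMT1#2 (adjusted p = 1.8e-06), or 57.8% of shLuc, and was not called with shDNMT1#1 (-0.30, adjusted p = 0.056) or either HDAC3 hairpin (0.22 and 0.02). A dim second probe set, with a mean of 5.83, gave 0.23 with shDNMT1#2. Splicing of the XBP1 RNA was not analysed.

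EIF2AK3, which encodes PERK, had levels of 8.25 and 8.49 with shHDAC3#1, 7.64 and 7.94 with shHDAC3#2, 7.81 and 7.72 with shDNMT1#1, 8.45 and 8.49 with shDNMT1#2, and 9.01 and 8.75 with shLuc. All hairpin arrays were below shLuc, and shHDAC3#2 and shDNMT1#1 were below the other hairpin of their own target. The falls with shHDAC3#2 and shDNMT1#1 left 46.9% and 46.1% of shLuc (log2 changes -1.09 ± 0.12, adjusted p = 8.4e-07, and -1.12 ± 0.12, adjusted p = 1.4e-06). With shHDAC3#1 and shDNMT1#2 the changes were -0.51 and -0.41, and both calls were lost without the first shLuc array (adjusted p = 0.096 and 0.22). That for shHDAC3#1 was also lost without its first array (0.079) and that for shDNMT1#2 without either of its own. A second probe set near background, with a mean of 5.05, went the other way, at 0.24 to 0.55.

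ERN1, which encodes IRE1, had levels of 7.90 and 7.85 with shHDAC3#1, 8.06 and 8.06 with shHDAC3#2, 8.02 and 7.85 with shDNMT1#1, 7.98 and 7.86 with shDNMT1#2, and 8.43 and 8.33 with shLuc. The hairpin arrays lay close together and all below shLuc. Changes were -0.50, -0.32, -0.44 and -0.46, each ± 0.10 and each called, while the 2 dimmer probe sets, with means of 6.65 and 4.56, ranged from -0.13 to 0.26. The shHDAC3#2 call was lost in 8 of the 10 fits that left out 1 array, and the shDNMT1#1 call without the second shDNMT1#1 array or the first shLuc array (adjusted p = 0.088 and 0.11).

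ATF6 was at 7.61 and 7.55 with shHDAC3#1, 7.92 and 7.94 with shHDAC3#2, 8.03 and 7.68 with shDNMT1#1, 8.12 and 8.16 with shDNMT1#2, and 8.08 and 7.81 with shLuc. The shHDAC3#1 arrays were lowest, and shHDAC3#2 and shDNMT1#1 overlapped shLuc. Its change with shHDAC3#1 was -0.37 ± 0.11 (adjusted p = 0.024), and without the first shLuc array it was -0.24 (adjusted p = 0.33), and the call was also lost without either shHDAC3#1 array. The next brightest probe set of the gene dropped by 1.00 with shHDAC3#1 and gave -0.33 to -0.54 with the others. WFS1, an ER membrane protein that dampens ATF6, had changes of 0.10, 0.12, 0.26 and 0.42, of which the last was called (adjusted p = 0.0077). Further quantile normalization ended the calls of ATF6 with shHDAC3#1, ERN1 with shHDAC3#2 and EIF2AK3 with shDNMT1#2, and added a lower call for XBP1 with shDNMT1#1 (-0.26, adjusted p = 0.035) and a higher one with shHDAC3#1 (0.38), as well as a higher call for ATF6 with shDNMT1#2 (0.33, adjusted p = 0.028).

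The class medians depended on how the arrays were scaled. After further quantile normalization the disulfide median was -0.56 with shHDAC3#1, -0.14 with shHDAC3#2 and -0.30 with shDNMT1#1, but it was 0.12 with shDNMT1#2. With that hairpin the folding median likewise turned to 0.05 and the degradation median to 0.01. Folding and degradation stayed at -0.24 each with shHDAC3#1 and at -0.18 and -0.19 with shHDAC3#2. With shDNMT1#1 the degradation median turned to 0.03, and with shHDAC3#2 the sensor median turned to 0.06.

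**Figure D4:**
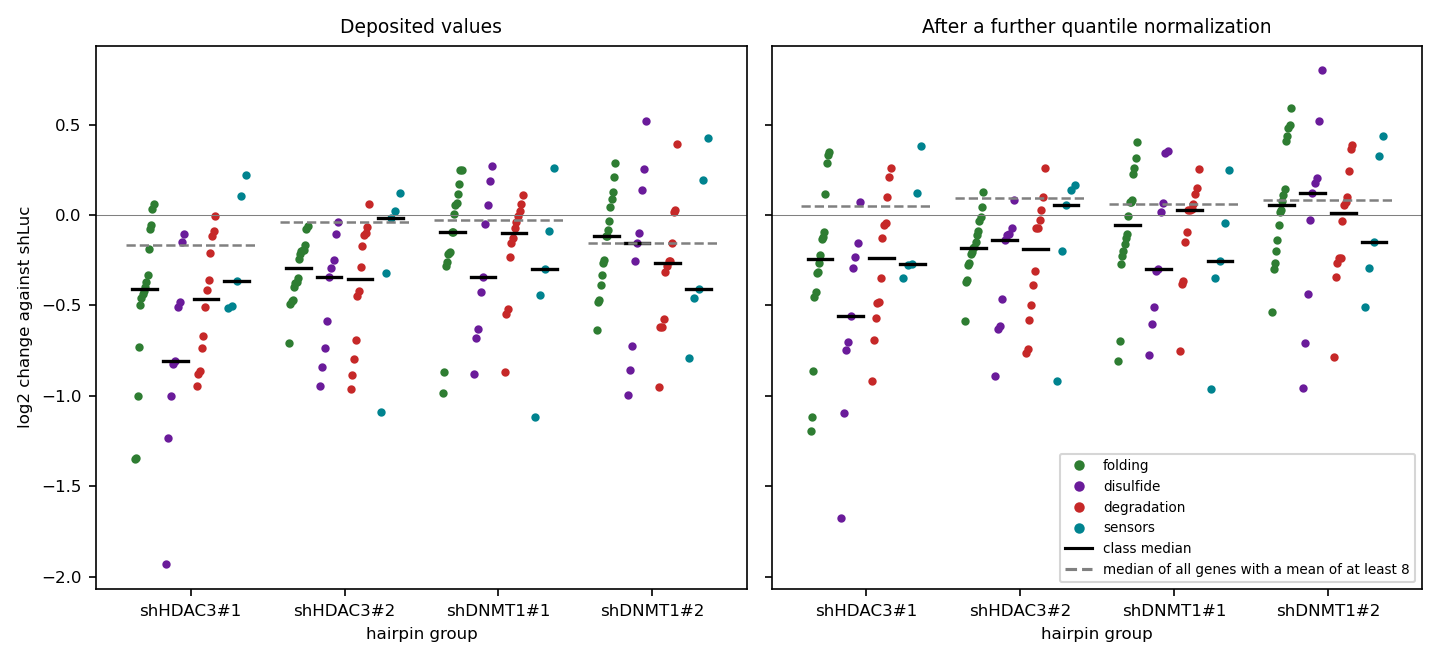
Log2 change against shLuc of each gene (points, coloured by class) by hairpin group, from the deposited values (left) and after a further quantile normalization (right). Black bars are class medians and dashed lines are the median of all genes with a mean log2 level of at least 8. With the HDAC3 hairpins the folding, disulfide and degradation medians are under the dashed line in both panels, while with shDNMT1#2 they sit around it on the right.

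The second comparison set the DNMT1 knockdown (the mean of its 2 hairpins, n = 4 arrays) against the HDAC3 knockdown (n = 4), a contrast in which the shLuc arrays cancel. Here 19 of the 42 genes were higher in the DNMT1 knockdown and 2 were lower, with a median log2 difference of 0.23, where 9.59% of all genes were called (6% higher and 3.59% lower) and the median of all genes was 0.02. Of the 31 bright genes, 17 were called higher, against 12.7% of all bright genes. Higher calls numbered 9 of 16 in folding, 4 of 9 in disulfide formation, 6 of 12 in degradation and 0 of 5 among the sensors. The 2 lower genes were DNAJC1 (-0.61 ± 0.06, adjusted p = 1.2e-06) and XBP1 (-0.67 ± 0.07, adjusted p = 6e-07).

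PDIA4 averaged 9.68 on the log2 scale in the DNMT1 knockdown and 8.38 in the HDAC3 knockdown, a difference of 1.30 ± 0.08 (adjusted p = 9.4e-10). Higher too were P4HB (0.95 ± 0.07, adjusted p = 5.7e-09), HYOU1 (0.77 ± 0.08, adjusted p = 7.8e-07), DNAJC3 (0.69 ± 0.08, adjusted p = 3.9e-06) and CANX (0.59 ± 0.07, adjusted p = 2.1e-06). HSPA5 differed by 0.45 ± 0.06 (adjusted p = 5e-05), with the 4 DNMT1 arrays above all 4 HDAC3 arrays. For CANX and UFM1 the arrays of the knockdowns overlapped, with the shHDAC3#2 arrays near those of the DNMT1 hairpins. They also overlapped for HSP90B1, DNAJB11, PDIA3, EDEM2 and OS9, which were called higher too. After further quantile normalization all 21 calls remained, with 21 genes higher and 2 lower, where 1246 of all genes were higher and 982 lower.

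Without the shHDAC3#1 arrays fewer genes differed. Leaving both of them out, 11 genes were called higher and 2 lower, and the difference of CANX was 0.000975 (adjusted p = 1.0) and that of UFM1 0.22 (adjusted p = 0.46). The differences of PDIA4, P4HB, HYOU1 and DNAJC3 were then 0.50, 0.50, 0.35 and 0.54, all still called. The ERLEC1 difference (0.28, adjusted p = 0.032) was lost in 6 of the 10 fits that left out 1 array. A random block for the hairpin allowed for a correlation of 0.35 within a hairpin, so arrays of 1 hairpin still counted as partly independent. Under it none of the 42 genes was called in limma (smallest adjusted p = 0.14), with 19 at an unadjusted p under 0.05.

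**Figure D5:**
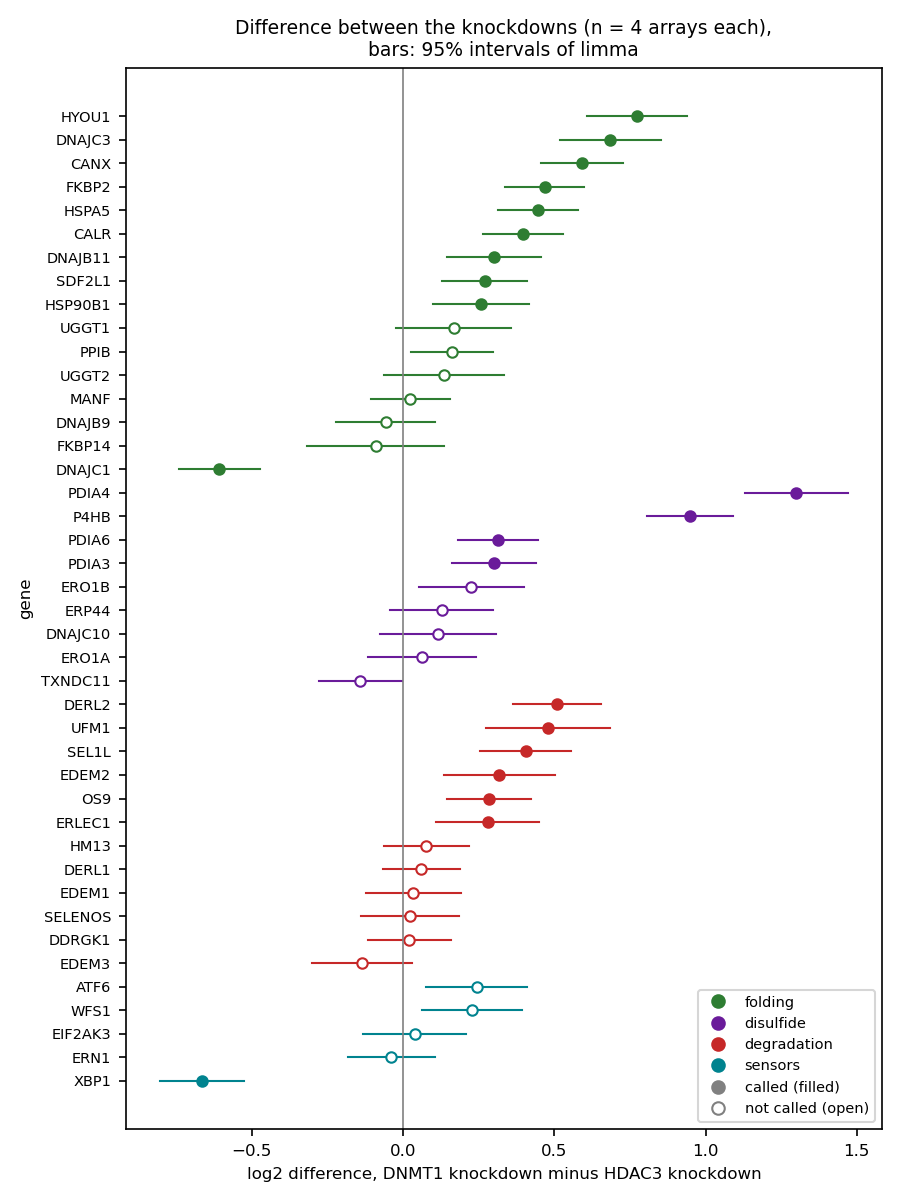
Difference in log2 level, DNMT1 knockdown minus HDAC3 knockdown (n = 4 arrays each), for the 42 genes ordered within class, with 95% intervals from limma. Filled points were called at an adjusted p under 0.05. PDIA4, P4HB, HYOU1 and DNAJC3 lie farthest to the right, and XBP1 and DNAJC1 are the filled points left of 0.

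Against shLuc, the HDAC3 knockdown as a mean of hairpins had 29 genes lower and none higher, where 19.2% of all genes were called (15.3% lower and 3.96% higher). The DNMT1 knockdown had 15 lower and 3 higher, where 20.2% were called (13.5% lower and 6.66% higher). The 3 higher genes were P4HB (0.40), WFS1 (0.34) and FKBP2 (0.23). Of the 31 bright genes of the set, 38.7% were lower in the DNMT1 knockdown, near the 35% of all bright genes. In the HDAC3 knockdown these shares were 77.4% and 37.4%. Further quantile normalization gave 20 lower and 2 higher for the HDAC3 knockdown, where 2452 of all genes were lower and 1957 higher. It gave 10 lower and 9 higher for the DNMT1 knockdown, where 2295 of all genes were lower and 1969 higher. Under the random hairpin block, 2 calls remained for the HDAC3 knockdown, SEL1L (-0.84, adjusted p = 0.041) and ERP44 (-0.83, adjusted p = 0.047), and 1 for the DNMT1 knockdown, EDEM3 (-0.91, adjusted p = 0.046). Those 3 genes are given because so few were called, after their values were seen.

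The last comparison was between hairpins of 1 target. Between shHDAC3#1 and shHDAC3#2, 13 genes were lower with shHDAC3#1 and 5 higher, where 12.6% of all genes were called (8.85% lower and 3.75% higher). The log2 difference of PDIA4 was -1.59 ± 0.12 (adjusted p = 2.9e-09), and those of CANX and P4HB were -1.18 ± 0.09 (adjusted p = 7.8e-09) and -0.90 ± 0.10 (adjusted p = 7.1e-07). HYOU1 (-0.86), UFM1 (-0.52), DNAJC10 (-0.50), ATF6 (-0.35), PPIB (-0.33) and HSPA5 (-0.30) differed in the same direction. Leaving out any 1 of the 4 arrays compared ended the calls of UFM1 and ATF6, and leaving out the first shHDAC3#1 array or the second shHDAC3#2 array ended those of DNAJC10, PPIB and HSPA5. Over all 10 fits that left out 1 array, the HSPA5 call was lost in 5 and the ATF6 call in 6. Genes higher with shHDAC3#1 were EIF2AK3 (0.58), DNAJB11 (0.51), SELENOS (0.48), DNAJC1 (0.41) and FKBP2 (0.32). The shHDAC3#1 arrays are also those with the largest ACTB 3' minus 5' difference, and its part in these differences was not tested.

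Between shDNMT1#1 and shDNMT1#2, 6 genes were called, where 12% of all genes were called (3.57% lower and 8.39% higher). EIF2AK3 (-0.70 ± 0.12, adjusted p = 0.00018) and DNAJB9 (-0.65 ± 0.11, adjusted p = 0.00028) were lower with shDNMT1#1. PPIB (0.64 ± 0.09, adjusted p = 4.3e-05), EDEM1 (0.57), XBP1 (0.49) and SELENOS (0.39) were higher. Further quantile normalization changed the split to 11 lower and 3 higher, where 1108 of all genes were lower and 1448 higher.

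The changes were also described by promoter motif. The 9 genes with an ERSE or ERSE-II had a median log2 change of -0.46 with shHDAC3#1, -0.19 with shHDAC3#2, 0.00 with shDNMT1#1 and -0.09 with shDNMT1#2. The 27 measured genes with a window and neither motif, among them TXNDC11 and DNAJC10 with the XBP1 element alone, had medians of -0.51, -0.40, -0.22 and -0.26. In the difference between the knockdowns the medians were 0.31 and 0.17, with 7 of 9 and 11 of 27 called higher. Among the sequences printed above, HSPA5, HYOU1 and CANX were higher in the DNMT1 knockdown and XBP1 was lower, although each holds an ERSE or ERSE-II. These groups of genes were described and not tested.

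Other genes of the same routes, 60 measured of 66 listed, included 29 lower and none higher in the HDAC3 knockdown (median -0.24) and 23 lower and 3 higher in the DNMT1 knockdown (median -0.18). Of all genes, 15.3% were lower and 3.96% higher in the HDAC3 knockdown (median 0.05), and 13.5% lower and 6.66% higher in the DNMT1 knockdown (median 0.07). In the HDAC3 knockdown these were 12 of 23 folding and disulfide genes, 10 of 23 degradation genes and 7 of 14 signalling genes. The largest falls among these folding and disulfide genes were in PPIC, a proline isomerase (-1.13 ± 0.11), and TMX3, a membrane disulfide isomerase (-0.85 ± 0.10). Both also fell in the DNMT1 knockdown (-0.74 and -0.80). NFE2L2, a substrate of PERK that drives antioxidant genes, was lower in both (-0.89 and -0.77), and so was UBE2J1, the ubiquitin-conjugating enzyme of the SEL1L complex (-0.62 and -0.55). FAM8A1, a cofactor of that complex (-0.68 and -0.45), was also lower in both the HDAC3 and the DNMT1 knockdown. The same held for PPP1R15B (-0.56 and -0.49) and for MBTPS2, a protease that activates ATF6 (-0.54 and -0.66). NGLY1, which strips glycans from exported clients, was called in the DNMT1 knockdown (-0.66) and not in the HDAC3 knockdown (-0.08, adjusted p = 0.55), and it differed between them (-0.58, adjusted p = 8.1e-06, DNMT1 minus HDAC3). The genes that rose in the DNMT1 knockdown were FKBP9 (0.34), HERPUD1, a scaffold of the ligase complex (0.28), and FKBP11 (0.27).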

How the data were processed

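Per the labels' protocols, RNA of MM.1S cells was hybridized 48 h after infection. The authors deposited log2 signals for 54675 probe sets. The submitters' processing notes name RMA, a method of background correction, quantile normalization and probe set summary. The RMA version and the number of runs were not given in the sources used here. Whether the DNMT1 arrays were processed with the shLuc arrays is likewise not stated, and the labels name shLuc as the control of the HDAC3 hairpins. RMA values near background understate changes.

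Probe sets were named by the platform annotation: 41091 had 1 symbol, 1801 several and 11777 none, and 6 control probe sets with a symbol were left out. Of the first, 41037 matched RefSeq (GRCh38.p14) by gene ID. The probe set with the highest mean stood for each of 19775 genes, of which 10523 had several. limma 3.58.1 in R 4.3.3 (lmFit, eBayes with a trend) was run on the log2 values in 1 model of 5 groups with 5 residual degrees of freedom. A knockdown is the mean of its hairpins. Errors are limma's SE, and the number of arrays limits the precision. The model was tested on simulated data.

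The genes, classes and motifs were chosen with earlier results of these data known. Every measured gene of the set could be named. Values of every array are given for HSPA5, XBP1, ATF6, ERN1 and EIF2AK3, for the 3 largest called changes of each class, and for the 3 largest called differences between hairpins and between knockdowns. ERO1A was added for its panel in the plot by array. Promoter windows (RefSeq, 250 bases before to 50 after the gene start) were searched for exact motif matches, and genes without a window are named only: DNAJC1, FKBP14, PDIA3, DERL1, HM13 and DDRGK1. Alternatives were a filter on dim genes, the mean of probe sets, leaving out cross-hybridizing probe sets, 2 scalings, eBayes without the trend, array weights, fewer arrays, a replicate block and a random hairpin block. The array SD as a covariate and leaving out 1 HDAC3 hairpin were added after seeing the data.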

Additional observations from a re-analysis of the deposited data

Results flagged for a closer look

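The hairpins of 1 target differed in a direct test within limma. Between shHDAC3#1 and shHDAC3#2, 18 of the 42 genes differed, where 12.6% of all genes did, and 9 differed without the first shHDAC3#1 or the second shHDAC3#2 array. The log2 differences, shHDAC3#1 minus shHDAC3#2, were -1.59 for PDIA4, -1.18 for CANX, -0.90 for P4HB, -0.86 for HYOU1, -0.52 for UFM1, -0.50 for DNAJC10, -0.35 for ATF6, -0.33 for PPIB, -0.30 for HSPA5 and 0.58 for EIF2AK3. Between shDNMT1#1 and shDNMT1#2, 6 of the 42 genes differed (14.3%), a share near the 12% of all genes, among them EIF2AK3 (-0.70), DNAJB9 (-0.65), PPIB (0.64) and XBP1 (0.49), as shDNMT1#1 minus shDNMT1#2. EIF2AK3 was thus higher with shHDAC3#1 than with shHDAC3#2 and lower with shDNMT1#1 than with shDNMT1#2.

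The knockdowns differed in 21 of the 42 genes, where 9.59% of all genes differed, and in 0 with the hairpin as a random block (19 at an unadjusted p under 0.05 in limma). DNMT1 minus HDAC3 knockdown, the log2 differences were 1.30 for PDIA4, 0.95 for P4HB, 0.77 for HYOU1, 0.69 for DNAJC3, 0.59 for CANX, 0.48 for UFM1, 0.45 for HSPA5, 0.28 for ERLEC1 and -0.67 for XBP1. The shLuc arrays cancel in these differences but enter the variance estimate behind the calls. Whether the DNMT1 and HDAC3 arrays were processed together is not stated. Beside the differences, the SD of the log2 values averaged 1.91 and 1.85 with shDNMT1#1 and shDNMT1#2 and 1.87 and 1.89 with shHDAC3#1 and shHDAC3#2. The ACTB 3' minus 5' difference averaged 0.72 and 0.71 with the DNMT1 hairpins and 1.00 and 0.74 with the HDAC3 hairpins. The part of either in the differences was not tested, except that the array SD as a covariate gave 24 genes called (22 higher, 2 lower).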

How the results depend on the processing

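The number of genes of the set called moved by over 1.5 times in these fits; the cause was not tested. Further quantile normalization gave 19 calls for shDNMT1#1 and 14 between the DNMT1 hairpins, where 8.05% and 12.9% of all genes were called. Without cross-hybridizing probe sets 35 genes remained, with 12 calls for shHDAC3#2. The hairpin as a random block treats the arrays of a hairpin as correlated. It left 2 calls for the HDAC3 knockdown, 1 for the DNMT1 knockdown and 0 between them (19 at an unadjusted p under 0.05). The array SD as a covariate, which is partly shared with the groups because both shLuc arrays have the highest SD, gave 3, 5, 7 and 1 calls for shHDAC3#1, shHDAC3#2, shDNMT1#1 and shDNMT1#2 and 1 for each knockdown: CANX, HYOU1 and PDIA4 with shHDAC3#1, ERO1A, SEL1L, EDEM3, ERLEC1 and EIF2AK3 with shHDAC3#2, DNAJB9, DNAJC1, DNAJC10, EDEM3 and EIF2AK3 lower with shDNMT1#1 and FKBP2 (0.36) and P4HB (0.44) higher there, which were not called in the deposited values, P4HB higher with shDNMT1#2 and in the DNMT1 knockdown, and PDIA4 in the HDAC3 knockdown. Without both shHDAC3#1 arrays there were 18 calls in the HDAC3 knockdown and 13 between the knockdowns.

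Medians of the set moved by more than their spread between replicates in 2 fits. Further quantile normalization gave -0.27, -0.16 and 0.042 for shHDAC3#1, shHDAC3#2 and shDNMT1#2, -0.19 and -0.036 for the HDAC3 and DNMT1 knockdowns, and -0.15 between the DNMT1 hairpins. The array SD as a covariate gave -0.17, -0.10 and 0.21, then -0.11 and 0.12, and -0.23 in the same order.

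Leaving out 1 array gave 22 to 29 calls for shHDAC3#1, 10 to 21 for shHDAC3#2 (10 without its first array, 12 without the first shLuc array), 6 to 14 for shDNMT1#1 (6 without the first shLuc array), 13 to 23 for shDNMT1#2, 19 to 30 for the HDAC3 knockdown and 10 to 19 for the DNMT1 knockdown (19 and 10 without the first shLuc array), 9 to 18 between the HDAC3 hairpins (9 without the first shHDAC3#1 or the second shHDAC3#2 array, 11 without the second shHDAC3#1 array), 5 to 7 between the DNMT1 hairpins and 16 to 22 between the knockdowns. The medians ran from -0.50 to -0.39, -0.36 to -0.26, -0.22 to -0.07, -0.26 to -0.17, -0.43 to -0.33, -0.24 to -0.10, -0.14 to -0.04, -0.06 to 0.08 and 0.19 to 0.26.

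Among the 16 genes given array by array, signs turned for EIF2AK3 with shDNMT1#2 as the mean of its probe sets (0.068), for DNAJB9 between the HDAC3 hairpins without cross-hybridizing probe sets (1.29), and for DNAJB9 with shDNMT1#2 after quantile normalization (0.029), as did SEL1L (0.06) and DERL1 (0.10) outside those 16. The array SD as a covariate turned EIF2AK3 with shHDAC3#1 (0.12) and shDNMT1#2 (0.38), and ERLEC1 (0.047) and DNAJB9 (0.48) with shDNMT1#2. Of 1440 results of 16 genes with 1 array left out, 1327 kept direction and call, 67 lost the call and 0 reversed. With a replicate block 29, 18, 12 and 21 genes were called for the 4 hairpins and 21 between the knockdowns, and equal numbers did not pair the arrays (correlations of deviations from -0.34 to 0.27). Duplicate arrays per group, 1 cell line and signals near background limit what could be detected.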
